A study of Homo sapiens with 4 samples.

Results

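The 10 genes described here encode the enzymes that build and modify long-chain fatty acids from acetyl-CoA, with fatty acid synthase (FASN) at the centre, and one transcription factor that acts on them. They were chosen by name for their roles (FASN, ACACA, ACLY, ACSS2, SCD, ELOVL5, ELOVL6, FADS1, FADS2 and SREBF1), with earlier results of these data known, and all 10 were found by Ensembl identifier among the 60614 genes of the count tables and were counted deeply enough to be tested. RNA-seq libraries were made from DU145, an androgen-independent human prostate cancer cell line, of both genotypes that the labels give, with 2 libraries for SPOP-F133V and 2 for wild-type. SPOP is the substrate-binding subunit of a CUL3 ubiquitin ligase, and F133V is a substitution in its substrate-binding domain of the kind found in prostate tumours. Both genotypes were grown in the same serum-containing medium, and the comparison addresses how the SPOP mutation alters gene expression. The labels do not say how the mutant cells were made, whether they are 1 clone or a pool, whether the wild-type cells carry a construct, or whether the libraries came from separate cultures. The p-values therefore measure only the spread between these libraries, which may be technical.

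Fatty acid synthesis starts in the cytosol with acetyl-CoA, which ACLY cuts from citrate and ACSS2 makes from acetate. ACACA carboxylates acetyl-CoA to malonyl-CoA, the committed step, and FASN joins malonyl units into the saturated fatty acid palmitate, using NADPH. Elongases (ELOVL5, ELOVL6) then lengthen fatty acids, and desaturases (SCD, FADS1, FADS2) place double bonds in them. SREBP-1, the product of SREBF1, is released from the endoplasmic reticulum by SCAP and site proteases when sterols are low and switches on most of these genes. Androgen signalling also raises this programme in the prostate, and FASN is abundant in many prostate cancers.

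Depth was similar across the libraries, at 35173245 to 39642063 reads assigned to genes. SPOP itself, whose mutant and wild-type transcripts are counted together, stood at 1171 and 1151 CPM (reads scaled to a common library size, not to gene length) in the F133V libraries and at 843.5 and 906.0 CPM in the wild-type libraries, so both F133V libraries were higher. That level does not check the substitution itself. All 5 epithelial markers (such as KRT8 and EPCAM) were above 1 CPM in every library, and they summed to 2242 to 2440 CPM in F133V and 1833 to 1834 CPM in wild-type. Among the prostate luminal markers, KLK3, which encodes prostate-specific antigen, was at 0 in all libraries. Of 5 adipocyte markers, the lipid-storage cell type that would bring these enzymes with it, LEP, FABP4 and LPL were at 0, and the sum stayed between 0.364 and 0.907 CPM. Hematopoietic markers summed to 1.53 to 2.66 CPM with CD3E at 0, and fibroblast and endothelial markers to 6.09 to 8.05 CPM with DCN at 0.

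A trend with GC content bears on every comparison of genotypes below. Across 11766 genes the genotype difference rose with the GC content of the gene's longest transcript (Spearman rho = 0.73, taken over genes that are no replicates of each other), and the difference between F133V replicates 2 and 1 rose with it as well (rho = 0.77), whereas that between the wild-type replicates did not (rho = -0.07). When genes were sorted into 10 equal bins of GC content, the median log2 difference between genotypes ran from -0.68 in the bin poorest in GC to 0.29 in the richest, and the median difference between F133V replicates 2 and 1 from -0.19 to 0.16. Each gene is therefore given with a second value, from the same edgeR model with an offset for GC content and transcript length, called the GC-adjusted value below. Whether the trend is technical was not tested. A gene's own difference and the part that follows GC content cannot be told apart for any single gene.

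Of the 10 genes, 4 were higher in F133V than in wild-type cells (ACSS2, SCD, FADS2 and SREBF1) and 1 was lower (ELOVL6) by edgeR's quasi-likelihood test, with p adjusted over all tested genes by Benjamini and Hochberg's method (BH) and a threshold of 0.05. FASN, ACACA, ACLY, ELOVL5 and FADS1 did not pass. In bulk RNA, less RNA per cell and fewer cells of a kind cannot be told apart. These 5 of 10 genes (50%) stand beside a background of 54.8% of the 17539 tested genes, of which 27.2% were higher and 27.6% lower, so the set was called about as often as any genes. With the GC offset 4 of 10 were called, with ACSS2, SCD and ELOVL5 higher and FASN lower, beside 52.2% of 17299 genes (27.6% higher and 24.6% lower). ACSS2 and SCD were the 2 genes with the same call in both fits, and no gene was called in opposite directions. The median log2 fold change of the 10 was 0.07, beside 0.02 over all tested genes, and the median absolute log2 fold change was 0.16, beside 0.32 over all tested genes. Both F133V libraries lay above both wild-type libraries for 6 genes (40.1% of all tested genes) and below for 2 (37.8%), or 8 of 10 without overlap, beside 78% of all tested genes. By DESeq2 4 of the 10 were called (ACSS2, SCD and FADS2 higher, ELOVL6 lower), beside 41.5% of genes (18.2% higher and 23.3% lower). With upper-quartile scaling 7 were called, 6 of them higher, beside 58.7% of genes (36.8% higher and 21.8% lower). Leaving out either wild-type library reduced the genes called from 9604 to 6384 (without replicate 1) or 6337 (without replicate 2) and the members called from 5 to 2 in both cases.

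**Figure D1:**
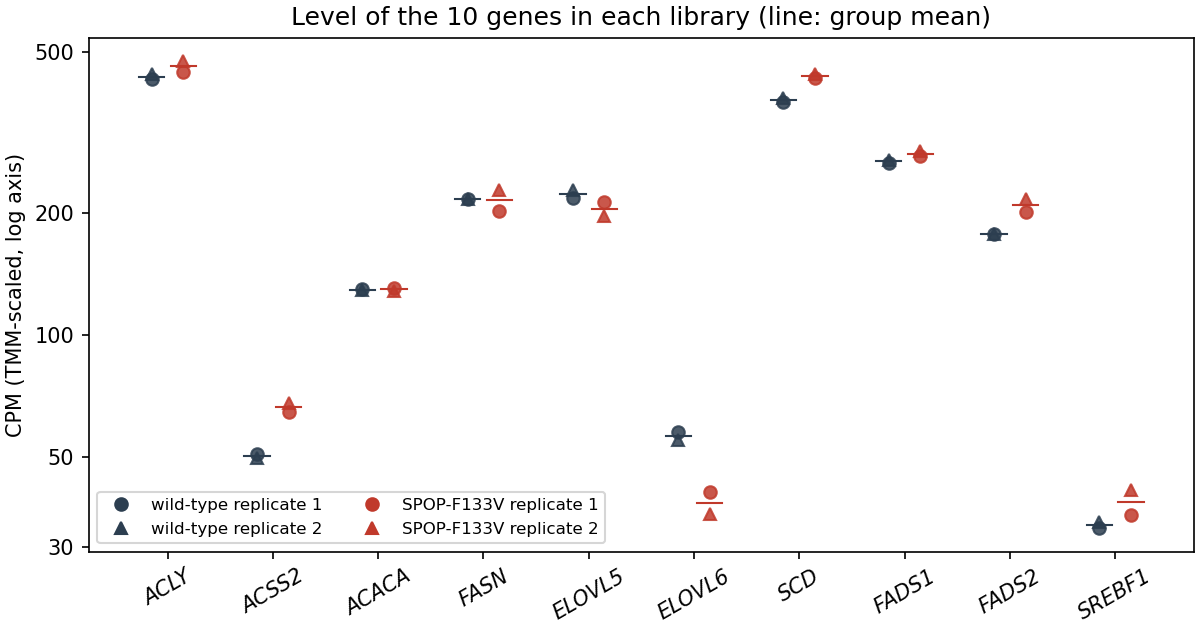
Levels of the 10 genes in each of the 4 libraries, in CPM on a log axis, with 1 point per library (circles for replicate 1, triangles for replicate 2) and a line at each genotype's mean. The libraries of FASN and ACACA overlap between genotypes, those of ELOVL6 and ELOVL5 are lower in F133V, and those of the other 6 genes are higher.

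**Figure D2:**
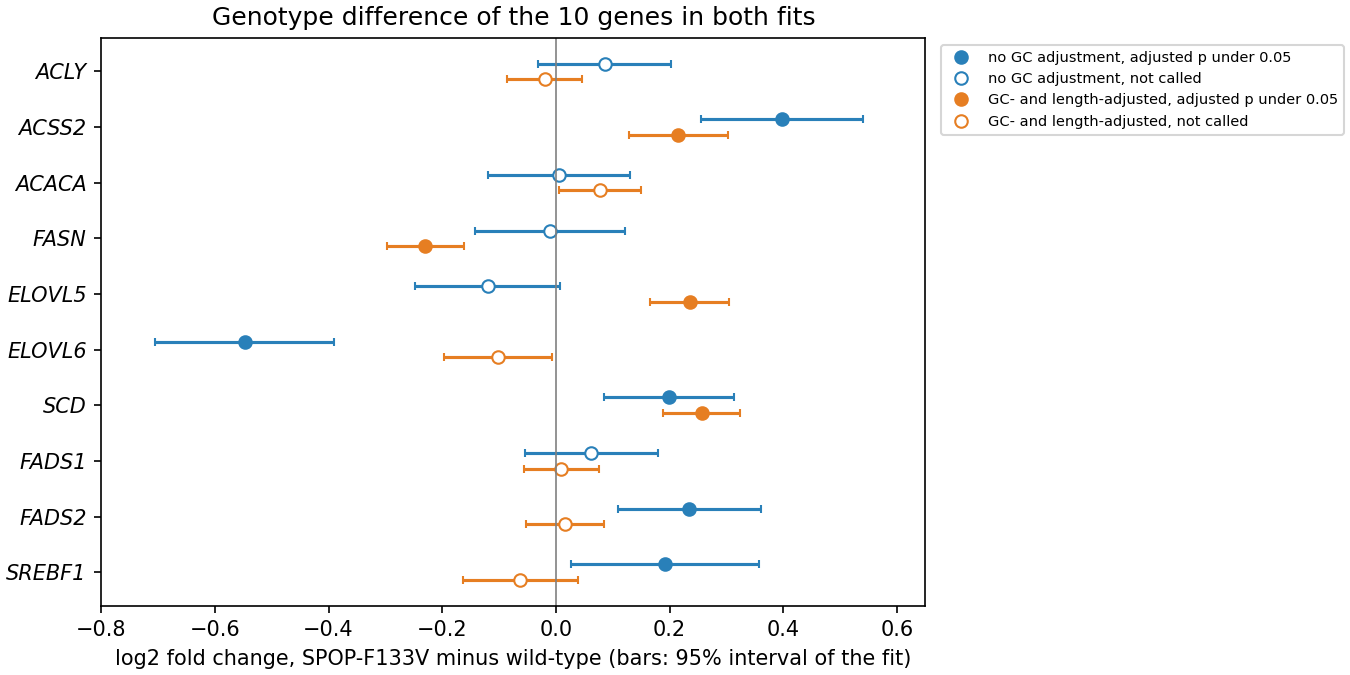
Log2 fold change (F133V minus wild-type) of each gene with its 95% interval, from the edgeR fit without and with the GC and length offset, with filled points where the adjusted p was under 0.05. ACSS2 (0.40 and 0.22) and SCD (0.20 and 0.26) stand above 0 in both fits, whereas FASN moves from -0.010 to -0.23 and ELOVL5 from -0.12 to 0.24.

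Promoter sequences were read for the genes that had an entry. The RefSeq promoter table on GRCh38.p14 held 14 windows for 9 of the 10 genes, all but FASN, and the 250 bases before each start were searched on both strands for 4 motifs, none of which holds another. These were a core of the sterol regulatory element bound by SREBP (TCACNCCAC), the NF-Y box (CCAAT), the Sp1 box (GGGCGG) and an E-box (CACGTG). No window held the sterol element core, beside 0.883% of 35116 windows of the same length, and this says only that those letters are not in these windows. The NF-Y box was in 7 of 14 windows, in 5 genes (ACLY, ACSS2, ACACA, ELOVL5 and SCD), beside 32% of all windows. The Sp1 box was in 11 of 14, in 8 genes, beside 42.6% of all windows. The E-box was in that of ELOVL5, beside 6.34% of all windows. The 2 ACLY windows overlap each other, as do the 2 FADS2 windows, and ACLY boxes in the shared bases were counted in both. The windows of ACSS2 and SCD are printed because these genes were higher in both fits, and that of ELOVL6 because it had the largest fold change of the 10. The last base of each line lies just before the RefSeq start site. Capitals mark the NF-Y (CCAAT or ATTGG) and Sp1 (GGGCGG or CCGCCC) boxes.
ACSS2, first start, chr20:34874739-34874988, plus strand: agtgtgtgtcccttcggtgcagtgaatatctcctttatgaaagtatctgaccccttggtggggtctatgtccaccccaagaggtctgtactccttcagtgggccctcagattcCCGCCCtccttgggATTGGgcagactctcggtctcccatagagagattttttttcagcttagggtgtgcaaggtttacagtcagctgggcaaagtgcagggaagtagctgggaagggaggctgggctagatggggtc
ACSS2, second start, chr20:34876362-34876611, plus strand: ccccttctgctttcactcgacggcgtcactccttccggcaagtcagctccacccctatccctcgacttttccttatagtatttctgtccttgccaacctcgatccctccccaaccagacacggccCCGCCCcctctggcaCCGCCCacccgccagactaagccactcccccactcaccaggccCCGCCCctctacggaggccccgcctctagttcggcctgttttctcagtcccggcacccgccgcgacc
SCD, chr10:100346983-100347232, plus strand: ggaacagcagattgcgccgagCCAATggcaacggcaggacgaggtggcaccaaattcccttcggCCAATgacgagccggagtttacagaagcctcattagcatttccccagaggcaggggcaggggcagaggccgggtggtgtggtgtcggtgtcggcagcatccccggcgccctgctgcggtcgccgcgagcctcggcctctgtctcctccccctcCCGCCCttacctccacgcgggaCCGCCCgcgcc
ELOVL6, chr4:110198616-110198865, minus strand: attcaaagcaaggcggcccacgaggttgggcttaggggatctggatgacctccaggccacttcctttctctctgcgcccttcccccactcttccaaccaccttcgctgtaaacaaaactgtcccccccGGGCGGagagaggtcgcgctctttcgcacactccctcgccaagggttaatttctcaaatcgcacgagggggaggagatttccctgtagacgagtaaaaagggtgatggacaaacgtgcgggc
The SCD window had NF-Y boxes far from the start and Sp1 boxes close to it. The windows of ACSS2 differed, with 1 box of each kind at the first start and Sp1 boxes alone at the second, and gene-level counts do not show which start was used. ELOVL6 held 1 Sp1 box. A match is a description of the sequence and not a measured binding site.

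Acetyl-CoA supply was represented by ACLY and ACSS2. ACSS2 (chr20:34872146-34927962, plus strand, GENCODE 29 on GRCh38), the synthetase that activates acetate, was counted at 64.65 and 68.07 CPM in the F133V libraries and at 50.94 and 49.77 CPM in the wild-type libraries. Both F133V libraries stood clear of both wild-type libraries, with means of 66.4 ± 2.42 and 50.4 ± 0.83 CPM (SD, n = 2 each). Its log2 fold change was 0.40 ± 0.069 (SE), with an edgeR BH-adjusted p of 5.489e-05. The GC-adjusted value was 0.22 ± 0.043, with an adjusted p of 6.152e-05. ACSS2 was the 1 gene of the 10 that kept its call under every setting tried.

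ACLY (chr17:41866908-41930542, minus strand), the citrate lyase that supplies most cytosolic acetyl-CoA, had the highest level of the 10 per transcript length. It stood at 446.4 and 474.4 CPM in F133V and at 427.8 and 440.1 CPM in wild-type. The groups did not overlap, but the F133V replicates lay farther apart (460.4 ± 19.8 CPM) than the genotypes' nearest libraries did. Its log2 fold change of 0.09 ± 0.056 (95% interval -0.03 to 0.20) did not pass (edgeR adjusted p = 0.209), nor did the GC-adjusted value of -0.02 ± 0.033 (adjusted p = 0.638). It passed as higher without F133V replicate 1 (0.10, adjusted p = 0.00848) and with upper-quartile scaling (0.20, adjusted p = 0.00622).

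Malonyl-CoA and palmitate synthesis rests on ACACA and FASN. ACACA (chr17:37084988-37406818, minus strand), the acetyl-CoA carboxylase of the lipogenic pathway, was counted at 131.0 and 128.6 CPM in F133V and at 129.6 and 129.1 CPM in wild-type. These 4 values interleave. The log2 fold change was 0.0052 ± 0.060, with an interval from -0.12 to 0.13 (edgeR adjusted p = 0.950). The GC-adjusted value was 0.08 ± 0.036 (adjusted p = 0.0674).

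FASN (chr17:82078333-82098332, minus strand), the multidomain synthase that makes palmitate, was counted at 202.3 and 227.9 CPM in F133V and at 216.7 and 216.5 CPM in wild-type. The wild-type libraries were almost equal and lay between the F133V libraries, whose log2 distance was 0.17. Means were 215.1 ± 18.1 and 216.6 ± 0.164 CPM (SD, n = 2 each), and the log2 fold change of -0.010 ± 0.063 (95% interval -0.14 to 0.12) did not pass (edgeR adjusted p = 0.906). FASN has the highest transcript GC content of the 10, at 65.3%, and the median gene of its GC bin differed by 0.29 between genotypes. Its GC-adjusted value was -0.23 ± 0.034 (95% interval -0.30 to -0.16), with an adjusted p of 2.835e-07. FASN thus stood below genes of like GC content in F133V while its share of the library was level. With no offset, its log2 fold change was -0.10 without F133V replicate 2 and 0.042 without F133V replicate 1. Its sign there depended on which F133V library was kept. With upper-quartile scaling, which shifted the median of all genes from 0.02 to 0.13, the log2 fold change of FASN was 0.10.

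Elongation of fatty acids was represented by ELOVL6 and ELOVL5. ELOVL6 (chr4:110045846-110199199, minus strand), which extends palmitate to stearate, stood at 41.0 and 36.13 CPM in F133V and at 57.62 and 55.15 CPM in wild-type. Both F133V libraries were lower, and the F133V mean (38.6 ± 3.44 CPM) was 0.684 times the wild-type mean (56.4 ± 1.74 CPM). The log2 fold change was -0.55 ± 0.076, with an edgeR adjusted p of 3.936e-06, the largest of the 10 in size. ELOVL6 lies in the low GC range (41.2%), where the median gene differed by -0.34, and its GC-adjusted value of -0.10 ± 0.047 did not pass (adjusted p = 0.0681). The GC-adjusted value passed without F133V replicate 1 (-0.16, adjusted p = 0.00629).

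ELOVL5 (chr6:53267398-53349179, minus strand), which extends polyunsaturated fatty acids, is in the same GC bin (41.7%). It stood at 213.6 and 196.6 CPM in F133V and at 217.8 and 228.0 CPM in wild-type, with the F133V libraries lower by a narrow gap. The log2 fold change of -0.12 ± 0.061 (95% interval -0.25 to 0.0069) did not pass (edgeR adjusted p = 0.102), except without F133V replicate 1 (-0.21, adjusted p = 9.885e-08). The GC-adjusted value was 0.24 ± 0.034 (adjusted p = 2.958e-07), of the opposite sign. ELOVL5 stood above ELOVL6 in log2 fold change in both fits, though that difference was not tested.

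Desaturation was represented by SCD, FADS1 and FADS2. SCD (chr10:100347124-100364834, plus strand), the stearoyl-CoA desaturase that makes oleate, was counted at 430.7 and 442.0 CPM in F133V and at 375.6 and 384.5 CPM in wild-type. The groups were well apart, at 436.4 ± 8.02 and 380.1 ± 6.34 CPM (SD, n = 2 each). The log2 fold change was 0.20 ± 0.055 (edgeR adjusted p = 0.00442), and the GC-adjusted value was 0.26 ± 0.033 (adjusted p = 2.627e-08). With no offset, the call was lost without wild-type replicate 1 (0.18, adjusted p = 0.205) or replicate 2 (0.21, adjusted p = 0.131), while the size of the difference stayed close to 0.20.

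FADS2 (chr11:61792980-61867354, plus strand), the delta-6 desaturase that starts polyunsaturated fatty acid synthesis, stood at 201.3 and 216.9 CPM in F133V and at 177.3 and 178.0 CPM in wild-type. Both F133V libraries were higher, but replicate 2 was farther from replicate 1 than the wild-type libraries were from each other. The log2 fold change was 0.23 ± 0.060 (edgeR adjusted p = 0.00247), equal to the median of its GC bin (0.23), and the GC-adjusted value was 0.016 (adjusted p = 0.713). The call with no offset was lost without wild-type replicate 1 (adjusted p = 0.124) or replicate 2 (adjusted p = 0.120).

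FADS1 (chr11:61799625-61829318, minus strand), the delta-5 desaturase next in that route, stood at 276.9 and 284.1 CPM in F133V and at 266.3 and 271.0 CPM in wild-type. The groups did not overlap, but the gap between them was smaller than the distance between the F133V replicates. Its log2 fold change of 0.06 ± 0.056 (95% interval -0.06 to 0.18) did not pass (edgeR adjusted p = 0.368), and the GC-adjusted value was 0.0096 (adjusted p = 0.831). FADS1 passed as higher under upper-quartile scaling (0.17, adjusted p = 0.0139). FADS1 lies within the annotated span of FADS2 on the opposite strand, and they share 490 exon bases (4.79% and 4.44% of their exon bases). Strand use in counting is not stated. It is therefore not known whether reads in the shared bases were assigned by strand or left out as reads over more than 1 gene.

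SREBF1 (chr17:17810399-17837002, minus strand), which encodes SREBP-1a and SREBP-1c from separate starts that gene-level counts do not resolve, had the lowest level of the 10 per transcript length in wild-type. It stood at 36.04 and 41.40 CPM in F133V and at 33.34 and 34.47 CPM in wild-type. F133V replicate 2 was high, and replicate 1 was close to the wild-type libraries. The log2 fold change was 0.19 ± 0.079 (edgeR adjusted p = 0.0464). This call was lost without F133V replicate 2 (0.09, adjusted p = 0.177), without wild-type replicate 1 (0.17, adjusted p = 0.388) or replicate 2 (0.21, adjusted p = 0.255), by DESeq2 (adjusted p = 0.141) and with no low-count filter (adjusted p = 0.0668). The GC-adjusted value was -0.06 ± 0.050 (adjusted p = 0.301), at a GC content of 62.8%. SREBF1 shares 556 exon bases (6.92%) with RAI1 on the other strand.

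**Figure D3:**
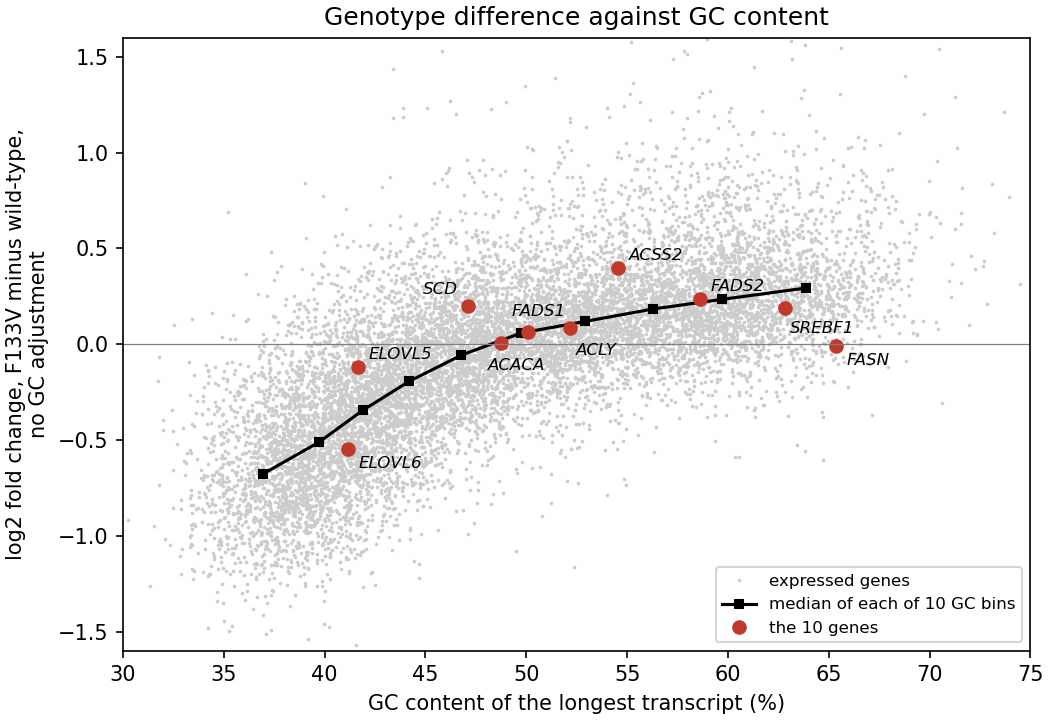
Log2 fold change (F133V minus wild-type, no offset) against the GC content of the longest transcript, with expressed genes as grey points, the medians of 10 equal GC bins as a black line and the 10 genes in red. The axis ends at 1.6 in either direction, and 13 genes beyond it are not drawn. FASN, at 65.3% GC, lies below its bin's median of 0.29, and ACSS2, SCD and ELOVL5 lie above theirs.

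Levels of different genes were compared as CPM per kilobase of the principal transcript. In wild-type cells the order was ACLY (100 CPM per kb), ELOVL5 (78.9), SCD (70.9), FADS1 (59.4), FADS2 (48.95), FASN (25.3), ACSS2 (16.4), ACACA (13.5), ELOVL6 (8.74) and SREBF1 (8.12). No 2 neighbours in that order had overlapping libraries. In F133V cells SCD (81.4 CPM per kb) stood above ELOVL5 (72.5), and SREBF1 (9.27) above ELOVL6 (5.98), with the other 6 genes in the same places. The desaturases and ELOVL5 were thus at higher levels per length than FASN and ACACA in both genotypes. The order depends on the transcript taken: with the union of all exons as the length, SCD came above ELOVL5, FASN above FADS2 and ACACA above ACSS2 in wild-type.

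Other genes of fatty acid metabolism were described from 10 lists, 87 of whose 90 genes were tested (THRSP, OLAH and CPT1B were too low). Of the 87, 31 were higher and 21 lower in F133V (59.8% called, beside 54.8% of all genes), with a median log2 fold change of 0.09. With the GC offset 37 were higher and 16 lower (60.9%, beside 52.2%), with a median of 0.08. Each list's counts below stand beside the shares of all tested genes. Those were 27.2% higher and 27.6% lower with no offset, and 27.6% and 24.6% with it. Of the 87, the same call in both fits was made for 29, and 5 had opposite calls. Those 5, named because their values differed in sign, were ELOVL7, HSD17B12, ACSL3, INSIG2 and CPT2, all lower with no offset, higher with it, and below 38.5% GC. Of the 87, 52 were called with every library, 32 without wild-type replicate 1 and 31 without wild-type replicate 2.

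**Figure D4:**
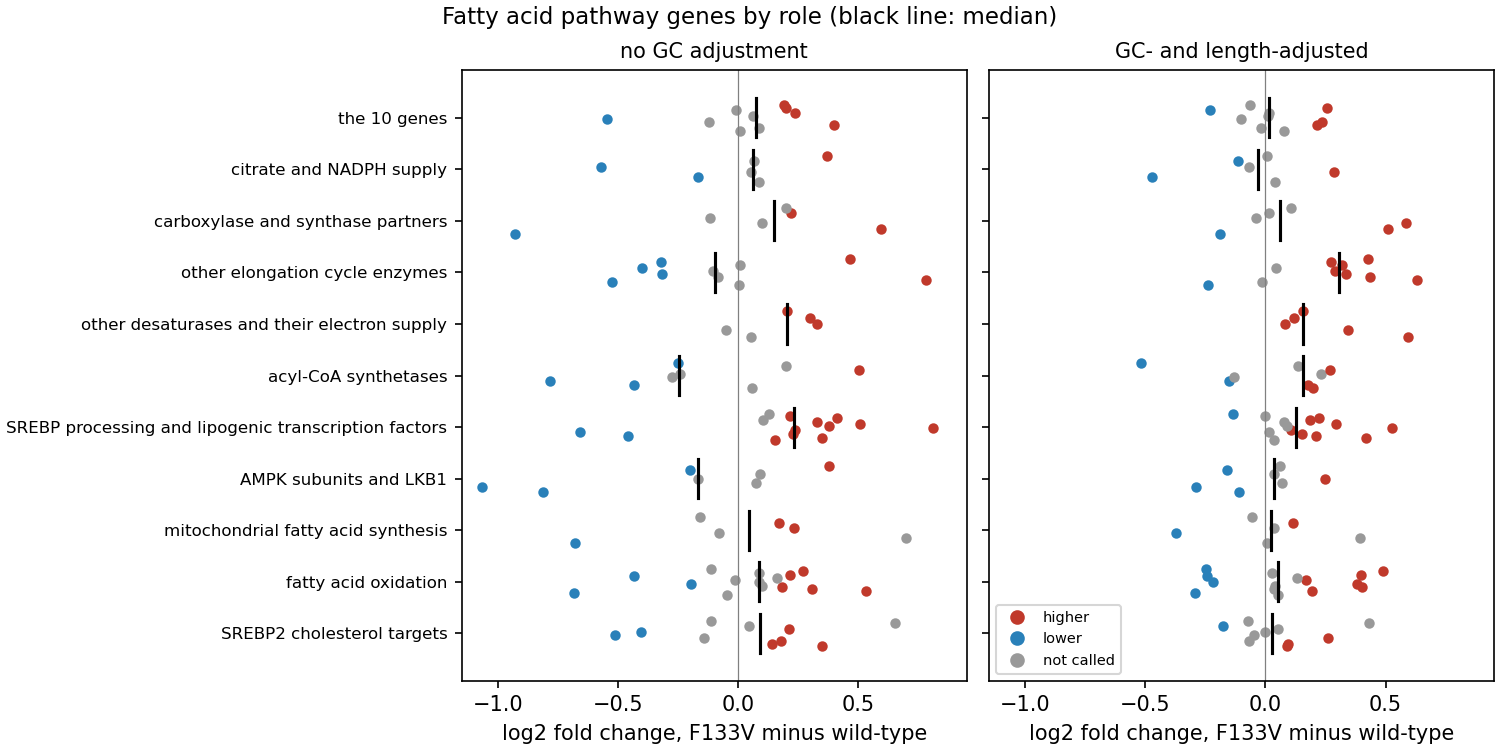
Log2 fold change (F133V minus wild-type) of each tested gene, 1 point per gene, for the 10 genes and the 10 further lists, with no offset (left) and with the GC and length offset (right). Colours mark genes called higher, lower or not called, and black lines mark list medians. The median of the other elongation enzymes passes from -0.10 to 0.31, and that of the SREBP processing list from 0.23 to 0.13.

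Around the first steps of synthesis, the citrate and NADPH list had 1 gene higher and 2 lower of 6 with no offset and the same numbers with it, but 1 gene alone had the same call in both fits. ME1, the cytosolic malic enzyme that yields NADPH, was lower (log2 fold change -0.57 ± 0.069, edgeR adjusted p = 6.512e-07), with a GC-adjusted value of -0.07 (adjusted p = 0.150). SLC25A1, the mitochondrial citrate exporter, was higher (0.37 ± 0.071, edgeR adjusted p = 1.872e-04), with a GC-adjusted value of 0.0060 (adjusted p = 0.909).

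Among the partners of the carboxylase and the synthase, 2 were higher and 1 lower of 6 with no offset and the same numbers with it, but 2 genes (ACACB and AASDHPPT) had the same call in both fits. ACACB, the carboxylase at the mitochondrial surface whose malonyl-CoA restrains fatty acid oxidation, was higher at 28.0 ± 0.68 against 18.6 ± 0.39 CPM (SD, n = 2 each). Its log2 fold change was 0.59 ± 0.079, and the GC-adjusted value was 0.51 (edgeR adjusted p = 1.65e-09). ACACB thus rose in both fits while ACACA passed in neither, though the difference between the carboxylases was not tested. AASDHPPT, which attaches the phosphopantetheine arm FASN needs, was lower in both fits (-0.93 ± 0.087 and -0.19, edgeR adjusted p = 0.00143 for the second). MID1IP1, which promotes ACACA polymerisation, was higher with no offset (0.22 ± 0.071, edgeR adjusted p = 0.0134), lost without wild-type replicate 1 (adjusted p = 0.248) or replicate 2 (adjusted p = 0.203), and its GC-adjusted value was 0.014. In its place DBI, the acyl-CoA binding protein, was called higher with the offset (0.59, edgeR adjusted p = 4.269e-15) and not without it (0.10 ± 0.065, adjusted p = 0.216), and it is named here after its values were seen. With no offset DBI passed without F133V replicate 2 (0.13, edgeR adjusted p = 0.00450) and with upper-quartile scaling (0.21, adjusted p = 0.00938).

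The other enzymes of the elongation cycle were 2 higher and 4 lower of 10 with no offset (median log2 fold change -0.10). With it, 7 were higher and 1 lower (median 0.31). Called were 60% with no offset, beside 54.8% of all genes, and 80% with it, beside 52.2%. The median GC content of these enzymes was 40.7%. TECR, the enoyl reductase of the cycle, was higher in both fits, at 170.9 ± 13.4 against 123.8 ± 2.69 CPM (log2 fold change 0.47 ± 0.065, GC-adjusted 0.43, edgeR adjusted p = 1.031e-11 for the second). ELOVL2, which elongates polyunsaturated fatty acids, and HACD2, a dehydratase of the cycle, were lower with no offset (-0.53 ± 0.070 and -0.40 ± 0.068) and did not pass with it (-0.015 and 0.05). The other desaturases and their electron supply were 3 higher of 5 with no offset and 5 of 5 with it. Over all tested genes, 27.2% were higher with no offset and 27.6% with it. CYB5R3, the reductase that feeds electrons to desaturases, had 0.33 ± 0.060 and a GC-adjusted 0.08 (edgeR adjusted p = 0.0352 for the second). That second call was lost without F133V replicate 1 (0.05, adjusted p = 0.231), wild-type replicate 1 (adjusted p = 0.181) or replicate 2 (adjusted p = 0.247). FADS3 (0.30 ± 0.072, GC-adjusted 0.12) and SCD5 (0.20 ± 0.083, GC-adjusted 0.15) were called in both fits. With no offset each lost its call without wild-type replicate 1 (edgeR adjusted p = 0.0568 for FADS3 and 0.538 for SCD5) or replicate 2 (0.0885 and 0.137), and SCD5 by DESeq2 as well (adjusted p = 0.179). With the offset FADS3 lost it also without F133V replicate 2 (0.06, adjusted p = 0.246), wild-type replicate 1 (adjusted p = 0.0744) or replicate 2 (adjusted p = 0.194), and SCD5 without F133V replicate 1 (adjusted p = 0.225) or wild-type replicate 1 (0.08, adjusted p = 0.487).

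Acyl-CoA synthetases, which activate fatty acids for use, were 1 higher and 3 lower of 8 with no offset (median log2 fold change -0.25), and 3 higher and 2 lower with it (median 0.16). ACSL4, which prefers arachidonate, was lower in both fits (-0.78 ± 0.077 and -0.15, edgeR adjusted p = 0.00365 for the second, or 0.0844 without wild-type replicate 1). ACSL3 was lower with no offset (-0.43 ± 0.072, edgeR adjusted p = 3.849e-05) and higher with it (0.18, adjusted p = 4.763e-04). SLC27A1, a fatty acid transport protein, was higher in both fits (0.50 ± 0.090 and 0.27, edgeR adjusted p = 0.00295 for the second). Its second call was lost without F133V replicate 1 (0.12, adjusted p = 0.224) or wild-type replicate 1 (adjusted p = 0.0918).

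Genes that process SREBP or regulate lipogenic transcription were 10 higher and 2 lower of 14 with no offset. Their median log2 fold change was 0.23, beside 0.02 over all genes. With the offset 8 were higher and 1 lower (median 0.13). Called were 85.7% with no offset, beside 54.8% of all genes, and 64.3% with it, beside 52.2%. SREBF2, the paralogue of SREBF1 that drives cholesterol genes, was higher in both fits (0.41 ± 0.059 and 0.22, edgeR adjusted p = 4.914e-07 for the second). MLXIPL, which encodes the glucose-responsive factor ChREBP, was also higher in both (0.81 ± 0.12 and 0.53, edgeR adjusted p = 9.889e-05 for the second). MBTPS2, the site-2 protease that releases SREBP, was lower with no offset (-0.66 ± 0.088) and stood at 0.014 with it (edgeR adjusted p = 0.860). Of 10 SREBP2 targets of cholesterol synthesis and uptake, 4 were higher and 2 lower with no offset, and 3 higher and 1 lower with it. HMGCS1 (-0.51 ± 0.067) and IDI1 (-0.41 ± 0.070), enzymes of the mevalonate route, were lower with no offset, and their GC-adjusted values of -0.05 and -0.0019 did not pass (edgeR adjusted p = 0.317 and 0.976). DHCR7, the last enzyme of cholesterol synthesis, was higher (0.35 ± 0.064, GC-adjusted 0.09 with an edgeR adjusted p of 0.0415). Its GC-adjusted call was lost without F133V replicate 1 (0.06, adjusted p = 0.160), wild-type replicate 1 (0.05, adjusted p = 0.529) or replicate 2 (adjusted p = 0.0616).

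AMPK, the energy-sensing kinase that phosphorylates and restrains ACACA, had 1 higher and 3 lower of 7 subunit and upstream kinase genes with no offset and the same numbers with it, but the higher gene was not the same. The catalytic subunits PRKAA1 (log2 fold change -0.81 ± 0.065) and PRKAA2 (-1.07 ± 0.086) were lower, and with the GC offset the values were -0.11 (edgeR adjusted p = 0.0118) and -0.29 (adjusted p = 5.641e-04). The GC-adjusted call for PRKAA1 was lost without wild-type replicate 1 (adjusted p = 0.0977) or replicate 2 (adjusted p = 0.128). STK11, which encodes the upstream kinase LKB1, was higher with no offset (0.38 ± 0.076), and its GC-adjusted value was 0.06 (edgeR adjusted p = 0.246). PRKAB2, a regulatory subunit named here after its values were seen, was the gene called higher with the offset (0.25, edgeR adjusted p = 5.149e-06), and with no offset its value was -0.17 ± 0.072 (adjusted p = 0.0513). That value passed as lower without F133V replicate 1 (-0.28, edgeR adjusted p = 3.224e-08).

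The separate mitochondrial fatty acid synthesis pathway, which makes the lipoic acid precursor, had 2 higher and 1 lower of 6 with no offset and 1 of each with it. CBR4, a reductase subunit of that pathway, was lower with no offset (-0.68 ± 0.12) and stood at 0.0072 with it. MECR, its enoyl reductase, was higher with no offset (0.23 ± 0.086), and this call was lost by DESeq2 and without F133V replicate 2 (0.11, edgeR adjusted p = 0.157), wild-type replicate 1 (adjusted p = 0.244) or replicate 2 (adjusted p = 0.209). NDUFAB1, its acyl carrier protein, was called higher in both fits (0.17 ± 0.068 and 0.11, edgeR adjusted p = 0.0385 and 0.0276). It lost the first call by DESeq2 (adjusted p = 0.122), both calls without wild-type replicate 1 (adjusted p = 0.329 and 0.180) or replicate 2 (0.391 and 0.142), and the second without F133V replicate 1 (0.06, adjusted p = 0.308).

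Fatty acid oxidation, the opposing pathway, had 5 higher and 3 lower of 15 with no offset (median log2 fold change 0.09) and 6 higher and 4 lower with it (median 0.05). ACADM, the medium-chain acyl-CoA dehydrogenase, was lower in both fits (-0.68 ± 0.087 and -0.29, edgeR adjusted p = 1.598e-05 for the second). ACADS, its short-chain relative, was higher in both (0.53 ± 0.081 and 0.19, edgeR adjusted p = 0.00346 for the second, or 0.0913 without wild-type replicate 1). ACADVL, its very long-chain relative, was higher with no offset (0.31 ± 0.056), and its GC-adjusted value was 0.03 (edgeR adjusted p = 0.389).

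The genes whose pattern over the 4 libraries was most like that of FASN were TCF7L1, NEIL2 and CLASRP, by the root mean square distance of gene-centred log2 CPM among 11312 genes of at least 5 CPM. Their distances were 0.00481, 0.00662 and 0.00696. TCF7L1, for example, stood at 8.20 and 9.27 CPM in F133V and at 8.86 and 8.80 CPM in wild-type. Their GC contents of 61.2%, 55.3% and 60.2% were also high. Of the 11312 genes, 727 lay within a distance of 0.05, so the pattern was not particular to FASN. How many genes lie as near to genes other than FASN was not counted.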

How the data were processed

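Total RNA of 4 DU145 libraries was sequenced as single reads of 75 bases, per the labels' protocols. The authors deposited 1 table of whole-number read counts per gene for each library, without scaling. The submitters' processing notes name TopHat2 2.0.10, HTSeq 0.6.0 and hg38. The annotation release, the library kit and the strand setting are not stated. Rows that name no gene stayed out of all sizes and tests: reads with several alignments were 13.6% to 16.6% of each library, and reads over more than 1 gene 3.50% to 3.73%.

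Counts were filtered with filterByExpr, scaled by TMM and tested with edgeR 4.0.16 (R 4.3.3) by its two-sided quasi-likelihood F-test. BH adjustment was made over 17539 genes, with a threshold of 0.05. Each gene had 2 residual degrees of freedom, and the tests and intervals added to these from the spread shared across genes. Each log2 fold change is the F133V level less the wild-type level, with its SE from the F statistic. The offset fit removed a smooth trend (mgcv 1.9.3) on GC content and transcript length per library, fitted on genes above a mean log2 CPM of 2. Symbols matched 60554 identifiers, and GC content 58324, from GENCODE 29 on GRCh38.

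The biological coefficient of variation was 4.64% (2.46% with the offset). A chi-square per degree of freedom of 7.68 between the F133V replicates and 1.64 between the wild-type replicates showed more than sampling noise in each pair, so none was a copy. The members and lists were chosen with earlier results of these data known. Named genes were all members, the 3 called genes of lowest adjusted p in each further list, SPOP, and the 3 genes nearest to FASN in pattern. Some genes that these rules name are not reported here. Alternatives were DESeq2 1.42.0, upper-quartile scaling, no low-count filter, a filter at 5 CPM in 2 libraries, a replicate block and leaving out each library.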

Additional observations from a re-analysis of the deposited data

How the results depend on the processing

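Of the 10 genes, ACSS2 kept its call in all 15 alternatives. Over the 150 values of the 10 genes, 93 kept direction and side of the threshold and 26 changed sign. Of those that kept their sign, 20 lost their call and 11 gained one. Changes of call also occurred among the 26. With the GC offset SREBF1 changed sign and lost its call in all 6 fits, and ELOVL5 changed sign and gained one in all 6. Leaving out 1 library at a time, with the lone library assumed to vary like the pair of the other genotype, gave 6337 to 10856 genes called, 2 to 7 of the 10 members and 31 to 66 of the other pathway genes. The lowest counts came without a wild-type library, when the spread was that of the F133V pair alone. With 2 libraries a genotype, the intervals given limit what could be told, more than depth does. Upper-quartile scaling raised the share of higher calls from 49.6% to 62.8%.

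The replicate numbers were not treated as pairs (r of same-numbered deviations -0.05 over 11788 genes, 2 pairs). With 2 pairs, that r cannot show whether the libraries were handled as pairs. A replicate block gave 9365 genes called, 4 of the 10 members (SREBF1 lost, adjusted p = 0.0603) and 48 of the other pathway genes, and with the GC offset it gave 9011, 4 and 53.

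Values of opposite sign were as follows, and the cause was not tested. With the GC offset, and with the offset and the block, they were -0.01987 and -0.01996 for ACLY, 0.2352 and 0.2356 for ELOVL5, -0.06288 and -0.06383 for SREBF1, 0.04608 and 0.04627 for HACD2, 0.1789 and 0.1788 for ACSL3, 0.01442 and 0.01294 for MBTPS2, 0.007159 and 0.004464 for CBR4, and 0.247 and 0.2478 for PRKAB2. DESeq2 gave -0.01028 for ACACA. Upper-quartile scaling and the 5 CPM filter gave 0.1013 and 0.02919 for FASN, 0.09362 and 0.02178 for TCF7L1, 0.1006 and 0.02863 for NEIL2, and 0.1034 and 0.03139 for CLASRP. Over the leave-one-out fits with and without the offset, the log2 fold change ranged from -0.03952 to 0.1009 for ACLY, -0.03911 to 0.08455 for ACACA, -0.2641 to 0.04229 for FASN, -0.2119 to 0.2686 for ELOVL5, -0.01865 to 0.06971 for FADS1, -0.01604 to 0.2569 for FADS2 and -0.08751 to 0.2579 for SREBF1. Among the other genes it ranged from -0.01453 to 0.4415 for SLC25A1, -0.007413 to 0.2536 for MID1IP1, -0.5851 to 0.0537 for ELOVL2, -0.5158 to 0.07163 for HACD2, -0.5602 to 0.1877 for ACSL3, -0.8257 to 0.07417 for MBTPS2, -0.9307 to 0.1031 for CBR4, -0.0438 to 0.3132 for MECR, -0.2781 to 0.3036 for PRKAB2 and -0.4931 to 0.02638 for IDI1. For the genes most like FASN it ranged from -0.3071 to 0.03799 (TCF7L1), -0.2677 to 0.04493 (NEIL2) and -0.295 to 0.04222 (CLASRP).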
